A study of Homo sapiens with 54 samples.

Results

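The S100 genes described here are the 10 family members S100A2, S100A4, S100A6, S100A7, S100A8, S100A9, S100A10, S100A11, S100A14 and S100P, which were taken by symbol from a table of 27470 genes. They were followed across 18 conditions of 2 triple negative breast cancer (TNBC) cell lines, with 3 RNA libraries in each condition and 54 libraries in all. SUM1315 carries a BRCA1 mutation and MDA-MB-468 is BRCA1 wild type. Parental cells were left untreated or were exposed overnight to olaparib, an inhibitor of poly-(ADP-ribose) polymerase, to cisplatin (CDDP), a platinum drug that crosslinks DNA, or to both. Olaparib was used at 8 µM in SUM1315 and at 3 µM in MDA-MB-468. CDDP was used at 2 or 4 µM in SUM1315 and at 1 or 2.5 µM in MDA-MB-468. Olaparib resistant (OlaR) derivatives were kept without interruption in 25 µM (SUM1315) or 15 µM (MDA-MB-468) olaparib and received the same CDDP doses. The OlaR cells are 1 derivative of each line, were selected by rising olaparib over months, and were sequenced with the drug present. Resistance, the higher olaparib dose and the longer exposure therefore cannot be told apart in any comparison of OlaR with parental cells.

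S100 proteins are small calcium binding proteins that change shape when calcium rises and then grip target proteins such as annexins and cytoskeletal motors. Most of their genes lie side by side in the epidermal differentiation complex on the long arm of chromosome 1, next to genes of the cornified envelope of skin. S100A8 and S100A9 pair to form calprotectin, which myeloid cells and stressed epithelia release and which sequesters zinc and manganese. S100A7 (psoriasin) is an epithelial alarmin of inflamed skin and of some breast carcinomas. S100A10 (p11) forms a complex with annexin A2 at the plasma membrane. S100A4 binds non-muscle myosin and is known for its link to cell motility, whereas S100A2 is a nuclear member found in basal epithelium.

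The unit throughout is the adjusted read count, that is, the number of 3′ end reads that the authors brought to a common library size of 5585170 reads. Each transcript gives reads at its 3′ end only and the counts are not scaled for length, so levels are compared between conditions and not between genes. Reads recovered from these values ranged from 2070301 to 9268162 per library. The OlaR libraries were the shallower ones in both lines, with 2070301 to 4676284 reads against 5574767 to 9268162 in parental MDA-MB-468, and 3446613 to 4665505 against 4977284 to 7540920 in parental SUM1315. Library pairs of a condition differed by more than sampling noise in every case (chi-square per degree of freedom 1.59 to 20.6), so none was counted as a repeat of another. Nothing states that the 3 libraries of a condition came from separate cultures, and p-values measure only the spread between them, which may be technical. SUM1315 had EPCAM, CDH1 and KRT19 at no more than 4.61 adjusted reads and VIM at 7929 to 13250.0, so this line lacked these 3 of the 7 epithelial markers read. KRT18 (231 to 598 adjusted reads), KRT8 (17.7 to 154), KRT14 (1.79 to 32.1) and KRT5 (0 to 28.4) were present in SUM1315 libraries at these levels. In MDA-MB-468, EPCAM ranged from 2631 to 3793 and VIM from 7.99 to 53.8. Because S100A8 and S100A9 are abundant in myeloid cells, 8 myeloid markers were read beside them. MPO had no read in any library, PTPRC reached at most 6.97 adjusted reads and LYZ at most 4.83. The 8 markers summed to 414 to 476 in untreated SUM1315, where CD14 reached 459, and to 78.0 to 122 in untreated MDA-MB-468. Across all SUM1315 libraries CD14 ranged from 9.12 to 459 adjusted reads. CD68, the next highest of the 8 markers there, reached at most 15.7, so the sum in this line mainly follows CD14 where it is high.

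By GENCODE v44 positions on GRCh38 (the hg38 assembly that the files use), 9 of the 10 genes lie on chromosome 1. S100A10 (151982915-151993859) and S100A11 (152032506-152047907) form one pair. The other members follow 1309.9 kb further along in the order S100A9 (153357854-153361023), S100A8 (153390032-153391073), S100A7 (153457744-153460651), S100A6 (153534599-153536244), S100A4 (153543613-153550136), S100A2 (153561108-153567890) and S100A14 (153614255-153616986). S100A9 is on the plus strand and the others on the minus strand. S100P stands alone on the plus strand of chromosome 4 (6693878-6697170). Of the 50-base stretches in the last 400 bases of each main transcript, 19.1% of those of S100A7 were also present in its near-identical neighbour S100A7A and 3.4% of those of S100A11 in a transcript of another gene, while the other 8 genes shared none. Values of S100A7 and S100A7A are therefore uncertain where reads fell in these stretches.

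The promoters of 4 members are shown as the 250 bases upstream of the RefSeq start site, 5′ to 3′ on the gene's strand (GRCh38.p14). S100A7, S100A8 and S100A9 are shown because they were lower together in OlaR MDA-MB-468, and S100A2 because it was higher in OlaR cells of both lines. Capitals mark matches to any of 4 motifs searched on both strands, which were AP-1 (TGANTCA), C/EBP (TTNNGNAA), STAT (TTCNNNGAA) and the TATA box (TATAAA).
S100A7, chr1:153460652-153460901, minus strand: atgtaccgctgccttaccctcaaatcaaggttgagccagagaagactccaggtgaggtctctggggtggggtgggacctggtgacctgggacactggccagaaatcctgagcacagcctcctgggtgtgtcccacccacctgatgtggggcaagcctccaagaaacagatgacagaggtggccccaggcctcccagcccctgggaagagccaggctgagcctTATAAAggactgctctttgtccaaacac
S100A8, chr1:153391074-153391323, minus strand: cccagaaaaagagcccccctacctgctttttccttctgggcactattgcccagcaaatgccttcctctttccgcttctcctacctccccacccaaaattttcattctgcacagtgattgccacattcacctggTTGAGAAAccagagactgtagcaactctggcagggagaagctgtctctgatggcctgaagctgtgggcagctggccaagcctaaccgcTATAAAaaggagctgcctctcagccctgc
S100A9, chr1:153357604-153357853, plus strand: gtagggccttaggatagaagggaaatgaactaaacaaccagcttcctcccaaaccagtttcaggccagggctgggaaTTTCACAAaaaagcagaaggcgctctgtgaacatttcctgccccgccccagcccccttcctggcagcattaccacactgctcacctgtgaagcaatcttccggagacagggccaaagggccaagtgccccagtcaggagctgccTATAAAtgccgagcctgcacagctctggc
S100A2, chr1:153565845-153566094, minus strand: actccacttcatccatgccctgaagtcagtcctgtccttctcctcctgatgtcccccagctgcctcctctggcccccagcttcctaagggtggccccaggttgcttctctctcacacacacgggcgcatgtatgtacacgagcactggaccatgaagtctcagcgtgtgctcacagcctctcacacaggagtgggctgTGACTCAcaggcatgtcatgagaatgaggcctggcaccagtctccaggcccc
A TATA box match was present in 5 of the 10 member windows (S100A4, S100A7, S100A8, S100A9 and S100P), against 10.7% of all 35116 windows, and in each of the 5 it began 28 to 31 bases upstream of the start site. The C/EBP pattern, a common one that 33.2% of all windows held, was in 5 of 10. In S100A8 it began 117 bases and in S100A9 173 bases upstream. The AP-1 pattern (6.6% of windows) was in S100A2 alone, 52 bases upstream. No member window held the STAT pattern (6.6% of windows). A further search used 1 form of the NF-kB motif, narrower than its usual consensus, which 1.7% of windows and no member held. No matches overlapped in the 4 windows shown. These matches are descriptions of the letters only.

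Untreated cells of the 2 lines differed in the levels of most S100 genes. S100A8, S100A9, S100A2 and S100A6 were higher in SUM1315, and S100A14, S100A7, S100P, S100A10 and S100A4 were higher in MDA-MB-468. Of the 9 members that passed the filter on low values in both lines (at least 10 adjusted reads in at least 3 libraries), 8 were called (limma, Benjamini-Hochberg adjusted p at or under 0.05 over 14460 genes, all 54 libraries), where 72.7% of all genes tested were called. Which libraries were sequenced in the same pool of 27 is not stated, so line and pool cannot be told apart here.

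S100A14 had 3918, 3808 and 3689 adjusted reads in untreated MDA-MB-468 against 4.59, 1.06 and 2.08 in untreated SUM1315. It stayed between 2989.9 and 4401 in every MDA-MB-468 library. In SUM1315 it had no read in 19 of 27 libraries and 15 reads in all. Since only MDA-MB-468 took it past the filter, its difference between the lines is given with no test. The log2 difference (SUM1315 minus MDA-MB-468) was -10.18 with a pseudocount of 1 and -9.0 with a pseudocount of 5, so its size depends on the pseudocount. S100A7 had 553, 557 and 584 adjusted reads in untreated MDA-MB-468 and 22.0, 9.37 and 7.32 in untreated SUM1315, a log2 difference of -5.49 ± 0.30 (SE, n = 3 per group; limma adjusted p = 1.42e-21). S100P, a member first described in placenta, had 571, 566 and 526 adjusted reads in MDA-MB-468 against 55.8, 46.6 and 53.8 in SUM1315. It was 10.5-fold higher in MDA-MB-468 (limma adjusted p = 7.94e-12).

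The calprotectin genes went the other way. S100A8 had 3873, 4719.8 and 3276 adjusted reads in untreated SUM1315 against 333, 323 and 341 in untreated MDA-MB-468, 11.8-fold higher in SUM1315 (log2 3.55 ± 0.13, limma adjusted p = 5.46e-28). S100A9 had 9627, 10603 and 13118 against 1262, 1331 and 1205, 8.71-fold higher (limma adjusted p = 4.6e-27). In both genes every SUM1315 library lay above every MDA-MB-468 library. S100A2 was 2.78-fold and S100A6 1.9-fold higher in SUM1315 (log2 1.48 ± 0.076 and 0.92 ± 0.082). S100A4 and S100A10 were lower in SUM1315 by smaller factors (log2 -0.63 ± 0.08 and -0.99 ± 0.074). S100A11, which binds annexin A1, did not pass the test (log2 0.25, 95% confidence interval -0.03 to 0.52, limma adjusted p = 0.0971).

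**Figure D1:**
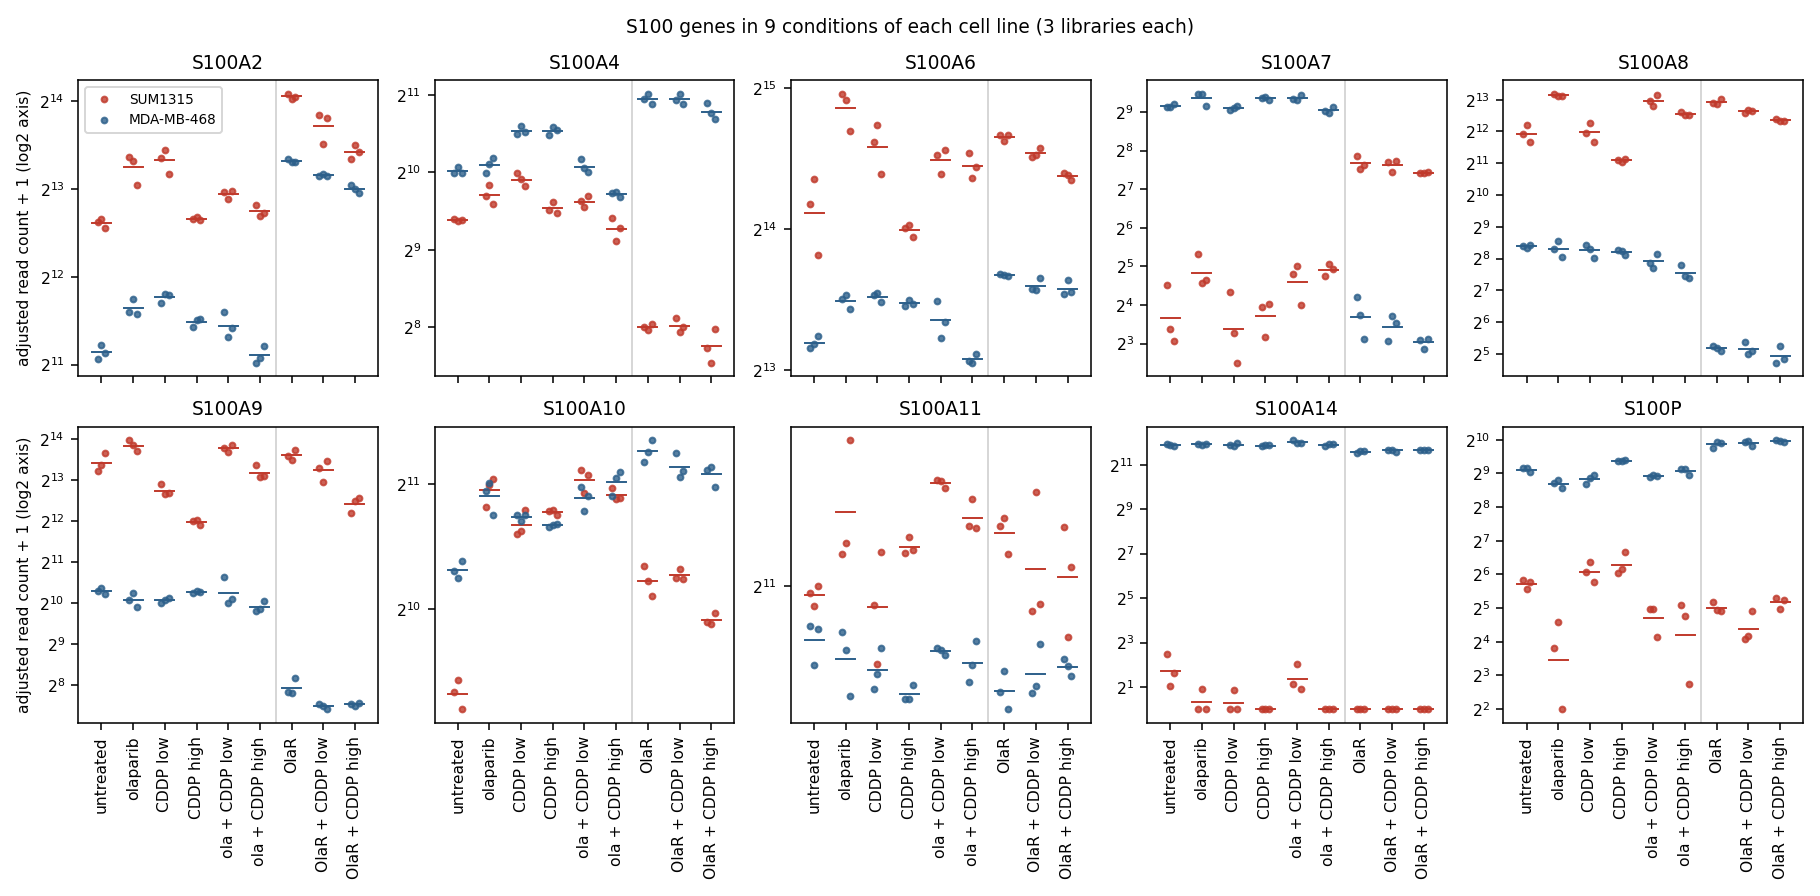
Adjusted read count plus 1 (log2 axis, a scale of its own in each panel) of the 10 S100 genes in the 9 conditions of SUM1315 (red) and MDA-MB-468 (blue); points are libraries, short lines are means of 3 on the log scale, low and high CDDP are 2 and 4 µM in SUM1315 and 1 and 2.5 µM in MDA-MB-468, and the grey line parts parental from OlaR cells. S100A7, S100A8 and S100A9 are lower in OlaR than in parental MDA-MB-468 while S100A7 is higher in OlaR SUM1315, and S100A4 is lower in OlaR SUM1315 and higher in OlaR MDA-MB-468.

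In parental SUM1315, overnight olaparib raised 8 S100 genes and lowered 1. The filter was passed by 9 members, S100A14 not among them. All 9 were called, where 36% of 13133 genes were called and 18.9% were called higher. Their median log2 fold change was 0.63, beside -0.0026 over all genes tested. With only the groups compared, the calls of S100A7, S100A9 and S100A11 were lost (limma adjusted p = 0.0744, 0.0726 and 0.0626). The widest rise was in S100A10, from 646, 689 and 587 adjusted reads in untreated cells to 1800.1, 2029 and 2108 after olaparib. These groups did not overlap, and the gene was 3.09-fold higher (log2 1.63 ± 0.086, limma adjusted p = 5.47e-16). S100A8 went from 3873, 4719.8 and 3276 to 9324, 8862 and 8843, which was 2.3-fold higher (log2 1.20 ± 0.11, limma adjusted p = 3.16e-10). Its partner S100A9 went from 9627, 10603 and 13118 to 16178, 14808 and 13372, a smaller rise of 1.34-fold (log2 0.42 ± 0.12, limma adjusted p = 0.00663). The lowest olaparib library of S100A9 lay just above the highest untreated one, and without untreated replicate 1 its call was lost (limma adjusted p = 0.06). The 8 myeloid markers summed to 71.7 to 73.9 after olaparib, below the untreated cells, and their part in the changes of S100A8 and S100A9 was not tested. Here and below, more cells expressing a gene and more RNA per cell cannot be told apart in these bulk libraries.

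S100A6, which binds calcyclin binding protein, rose from 18509, 20905 and 14403 to 31806, 30896 and 26463 and S100A2 from 6337, 6454 and 6036 to 10577, 10253 and 8449 (log2 0.74 ± 0.11 and 0.63 ± 0.092). S100A4 rose by 0.33 ± 0.10 and S100A11 by 0.46 ± 0.15 on the log2 scale. S100A11 had 2317, 2414 and 3577 adjusted reads in the olaparib libraries, and its call was lost without the highest of them (log2 0.26, limma adjusted p = 0.206). It was also lost without untreated replicate 2 (limma adjusted p = 0.0506), and that of S100A4 was lost without olaparib replicate 2 (log2 0.26, limma adjusted p = 0.0925). S100A7 went from 22.0, 9.37 and 7.32 to 38.6, 22.7 and 24.0 (log2 1.19 ± 0.37, limma adjusted p = 0.011). These are low counts, and the call was lost without untreated replicate 3 (limma adjusted p = 0.0892) or olaparib replicate 1 (limma adjusted p = 0.0739). S100P was the member that fell, from 55.8, 46.6 and 53.8 adjusted reads to 13.1, 22.8 and 3.0 (log2 -2.26 ± 0.47, limma adjusted p = 0.000245). Without olaparib replicate 3, the lowest, the log2 change of S100P was -1.53 (limma adjusted p = 0.00702).

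Parental MDA-MB-468 changed fewer members on olaparib. S100A2, S100A6 and S100A10 rose, S100P fell, and the other 6 did not pass the test, where 21.5% of 13012 genes were called. On the recovered reads, edgeR called 6 members and DESeq2 5. S100A10 went from 1262, 1215 and 1331 adjusted reads to 1972, 2054 and 1719.6, and S100A2 from 2132, 2386 and 2252 to 3112, 3427 and 3062 (log2 0.59 ± 0.064 and 0.50 ± 0.057). S100P went from 571, 566 and 526 to 420.0, 445 and 380.2 (log2 -0.42 ± 0.075, limma adjusted p = 2.43e-05). S100A8 did not pass the test (log2 -0.08, 95% confidence interval -0.38 to 0.22), nor did S100A9 (-0.23, -0.43 to -0.03, limma adjusted p = 0.0881). S100A2, S100A6 and S100A10 thus rose, and S100P fell, in both lines.

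The olaparib change differed between the lines for 6 of the 9 members that passed the filter in both, where 19.9% of all genes did. The difference (SUM1315 minus MDA-MB-468, log2) was 1.28 ± 0.19 for S100A8, 1.04 ± 0.10 for S100A10, 0.65 ± 0.17 for S100A9, 0.56 ± 0.19 for S100A11 and 0.45 ± 0.12 for S100A6. The call of S100A11 was lost without untreated replicate 1 or 3 or olaparib replicate 3 of MDA-MB-468, or untreated replicate 2 or olaparib replicate 3 of SUM1315 (limma adjusted p = 0.0554 to 0.176). The difference was -1.84 ± 0.50 for S100P (limma adjusted p = 0.00606), which without olaparib replicate 3 of SUM1315 became -1.11 (limma adjusted p = 0.0604). The call of S100A6 was lost with only the groups compared (limma adjusted p = 0.119). S100A14 rested on 0 to 5 reads per SUM1315 library and passed the filter only through MDA-MB-468, so it was not counted here. Its difference ran from -0.52 with a pseudocount of 5 to -3.01 by DESeq2. The doses were 8 µM in SUM1315 and 3 µM in MDA-MB-468, so line and dose cannot be told apart. S100A2 (0.13, 95% confidence interval -0.09 to 0.34), S100A4 (0.25, 0.02 to 0.47) and S100A7 (0.98, 0.13 to 1.82) did not pass the test.

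**Figure D2:**
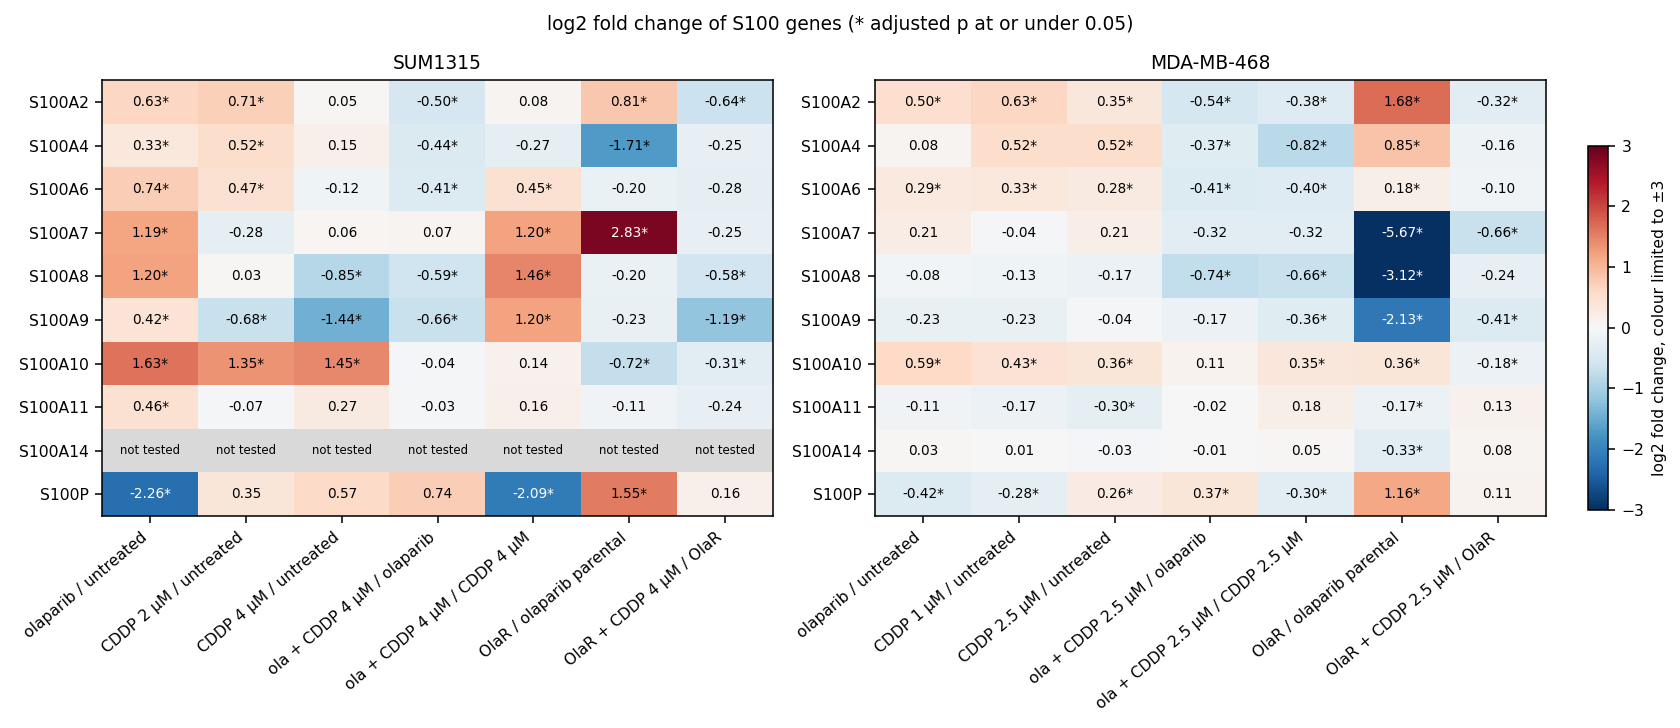
log2 fold change of each S100 gene in the 7 comparisons of each line, written in the cell and coloured from blue (lower) to red (higher) with the colour limited to 3 in each direction; an asterisk marks an adjusted p at or under 0.05, and grey marks a gene that was not tested. S100A10 is higher under olaparib and under either CDDP dose in both lines, from 0.36 to 1.63 on the log2 scale, and the widest change is that of S100A7 in OlaR MDA-MB-468 at -5.67.

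CDDP alone also changed S100 genes, and at 4 µM in SUM1315 both calprotectin genes, which olaparib had raised, fell. At 2 µM in parental SUM1315, 5 of 9 members were called, 4 higher and 1 lower, where 33.9% of genes were called. At 4 µM, 3 of 9 were called, 1 higher and 2 lower, where 43.9% of genes were called. S100A9 had 7662, 6491 and 6605 adjusted reads at 2 µM and 4121, 4194 and 3858 at 4 µM, against 9627, 10603 and 13118 in untreated cells. The log2 changes were -0.68 ± 0.12 (limma adjusted p = 4.56e-05) and -1.44 ± 0.12 (limma adjusted p = 1.74e-11), and no treated library overlapped the untreated ones. S100A8 had 3946, 4962 and 3281 at 2 µM, which overlapped the untreated libraries, and 2183, 2119 and 2219 at 4 µM, a log2 change of -0.85 ± 0.11 (limma adjusted p = 2.05e-07). The myeloid marker sum was also below the untreated range, at 120 to 173 with 2 µM and 125 to 174 with 4 µM, and its part in these falls was not tested.

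S100A10 rose at both doses in SUM1315, to 1550.2, 1578 and 1772 adjusted reads at 2 µM and to 1761, 1765 and 1719.6 at 4 µM (log2 1.35 ± 0.086 and 1.45 ± 0.086). S100A2 (10474, 11179 and 9237), S100A4 (1014, 961 and 906) and S100A6 (25057, 27315 and 21422) were higher at 2 µM than untreated, and the call of S100A6 was lost with only the groups compared (limma adjusted p = 0.123). None of these 3 passed the test at 4 µM, where the log2 values were 0.05 for S100A2, 0.15 for S100A4 and -0.12 for S100A6. The 2 doses were not tested against each other. S100P and S100A7 did not pass the test at either dose, with S100P at 0.35 and 0.57 on the log2 scale.

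In parental MDA-MB-468, 1 µM CDDP changed 5 of 10 members (4 higher, 1 lower), where 20% of genes were called. At 2.5 µM, 6 of 10 were called (5 higher, 1 lower), where 25.1% of genes were called. S100A2, S100A4, S100A6 and S100A10 rose at both doses by 0.28 to 0.63 on the log2 scale. S100A4 went from 1017, 1077 and 1014 adjusted reads to 1442, 1551 and 1473 at 1 µM and 1433, 1532 and 1492 at 2.5 µM, 1.44-fold and 1.43-fold higher. S100P was lower than untreated at 1 µM (411, 465 and 491, log2 -0.28 ± 0.075) and higher at 2.5 µM (659, 656 and 671, log2 0.26 ± 0.075). These S100P calls were lost without replicate 1 of 1 µM CDDP (limma adjusted p = 0.0634) and without untreated replicate 3 (limma adjusted p = 0.0546), respectively. S100A11 changed at 2.5 µM by -0.30 ± 0.074 on the log2 scale. S100A7, S100A8 and S100A9 did not pass the test at either dose, with log2 values from -0.23 to 0.21.

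With both drugs in SUM1315, the calprotectin genes were above their level with CDDP alone. Against 4 µM CDDP alone, 5 of 9 members were called (4 higher, 1 lower), where 12.8% of genes were called. S100A8 went from 2183, 2119 and 2219 adjusted reads with CDDP alone to 6276, 5852 and 5822 with both drugs, 2.75-fold higher (log2 1.46 ± 0.11, limma adjusted p = 7.41e-11). S100A9 went from 4121, 4194 and 3858 to 10609, 8673 and 8808, 2.3-fold higher (log2 1.20 ± 0.12, limma adjusted p = 2.15e-08). The myeloid marker sum was 62.5 to 101 with both drugs, and its part in these changes was not tested. S100A6 rose by 0.45 ± 0.11 on the log2 scale. S100A7 rose from 14.4, 8.06 and 15.2 to 25.8, 32.1 and 29.7 (limma adjusted p = 0.0268), a call that was lost without CDDP replicate 2 (limma adjusted p = 0.151) or combination replicate 2 or 3 (limma adjusted p = 0.0846 and 0.0732). S100P fell from 64.8, 71.1 and 101 to 32.8, 26.1 and 5.77 (log2 -2.09 ± 0.47). Without combination replicate 3, the S100P change was -1.37 with a limma adjusted p of 0.0499.

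Against olaparib alone, adding 4 µM CDDP lowered 5 of 9 members and raised none, where 8.44% of genes were called and 4.09% were called lower. S100A9 went from 16178, 14808 and 13372 to 10609, 8673 and 8808 and S100A8 from 9324, 8862 and 8843 to 6276, 5852 and 5822 (log2 -0.66 ± 0.12 and -0.59 ± 0.11). S100A2, S100A4 and S100A6 changed by -0.50, -0.44 and -0.41 on the log2 scale. The call of S100A6 was lost without olaparib replicate 1 or 2 or combination replicate 2, and that of S100A4 without olaparib replicate 2 or combination replicate 2 (limma adjusted p = 0.0545 to 0.0874). S100A10 had 2003, 1884 and 1896 with both drugs and did not pass the test (log2 -0.04, 95% confidence interval -0.21 to 0.14). The combination with 2 µM CDDP entered no test. It had 7873, 7204 and 8995 adjusted reads of S100A8 and 14279, 13270.2 and 14951 of S100A9, which overlapped the libraries with olaparib alone and lay above those with olaparib and 4 µM CDDP.

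The olaparib change differed with and without 4 µM CDDP for 4 of 9 members in SUM1315, where 21.5% of genes were called. For S100A10 the log2 difference (with CDDP minus without) was -1.49 ± 0.12 (limma adjusted p = 1.36e-10), the rise with olaparib being 1.63 without CDDP and 0.14 with it. For S100A9 the difference was 0.78 ± 0.17 (limma adjusted p = 0.00104), a larger rise with olaparib in the presence of CDDP. It was -0.55 ± 0.13 for S100A2 and -0.60 ± 0.15 for S100A4. S100A8 did not pass the test (0.26, 95% confidence interval -0.07 to 0.58), nor did S100A6, S100A7, S100A11 or S100P.

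**Figure D3:**
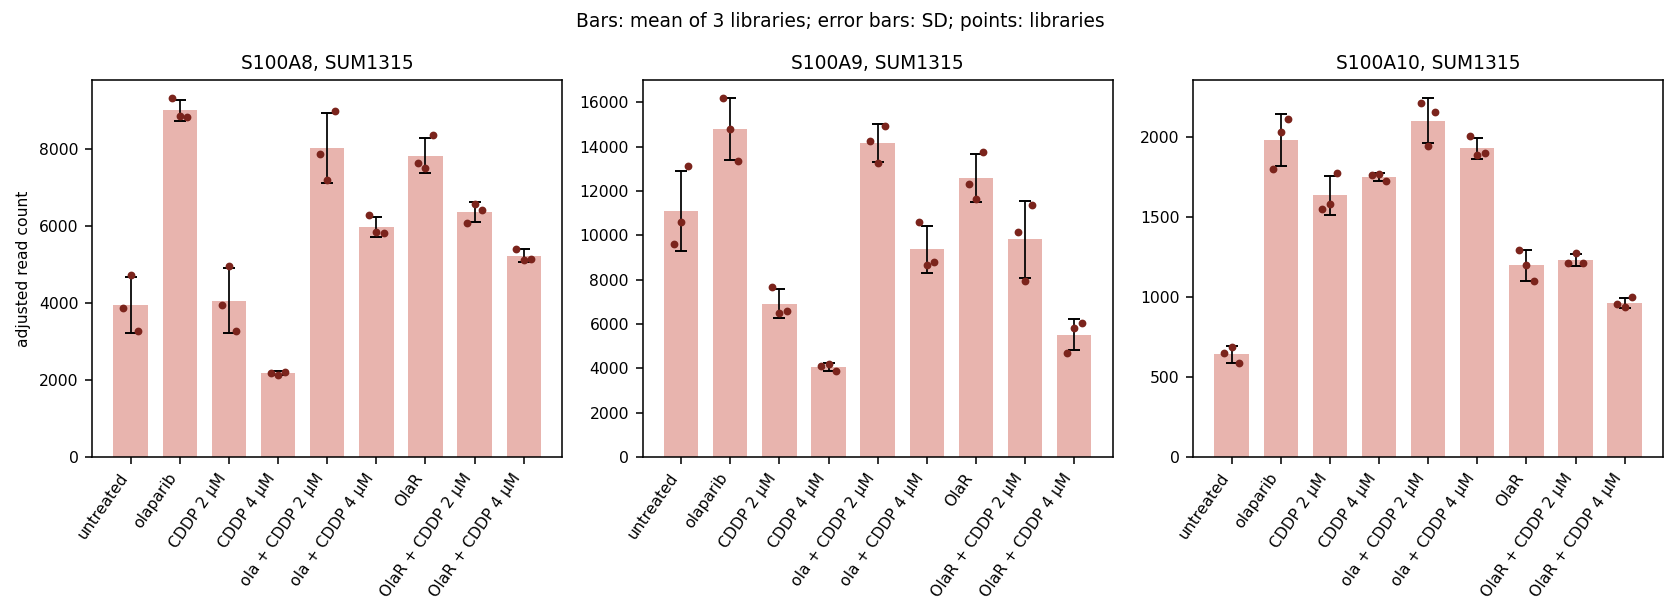
Adjusted read counts (linear axis from 0) of S100A8, S100A9 and S100A10 in the 9 conditions of SUM1315; bars are means of 3 libraries, error bars SD, and points single libraries. S100A8 and S100A9 are lowest with 4 µM CDDP alone (2174 and 4058 on average) and highest with olaparib alone (9009.6 and 14786), whereas S100A10 is lowest in untreated cells (641).

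In MDA-MB-468 both drugs together left S100A2, S100A4 and S100A6 below their levels with either drug alone. Against 2.5 µM CDDP alone, the combination changed 7 of 10 members (1 higher, 6 lower), where 11.9% of genes were called. Against olaparib alone, it changed 5 of 10 (1 higher, 4 lower), where 23.1% of genes were called. S100A4 had 1433, 1532 and 1492 adjusted reads with CDDP, 1019.7, 1101 and 1165 with olaparib and 851, 860.4 and 819 with both (log2 -0.82 ± 0.062 and -0.37 ± 0.062). S100A2 had 2746, 2916 and 2943 with CDDP, 3112, 3427 and 3062 with olaparib and 2078, 2161 and 2370.0 with both (log2 -0.38 ± 0.057 and -0.54 ± 0.057). S100A6 changed by -0.40 and -0.41. S100A8 was also below either drug alone, with 308, 303 and 275 with CDDP, 315, 372 and 264 with olaparib and 222, 175 and 167 with both (log2 -0.66 ± 0.15 and -0.74 ± 0.15). The 8 myeloid markers summed to 49.4 to 68.4 with CDDP, 36.7 to 53.4 with olaparib and 16.6 to 36.2 with both, and their part in the fall of S100A8 was not tested. S100A10 rose with the combination over CDDP alone, from 1611, 1632 and 1635 to 1917, 2115 and 2181. S100P, at 563, 556 and 492, lay between its levels with CDDP (659, 656 and 671) and with olaparib (420.0, 445 and 380.2) alone. S100A9 changed against CDDP alone by -0.36 ± 0.098 on the log2 scale, a call that was lost without combination replicate 1 (limma adjusted p = 0.0508), as that of S100P was without combination replicate 3 (limma adjusted p = 0.0567).

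The olaparib change differed with and without 2.5 µM CDDP for 6 of 10 members, where 20.2% of genes were called. The log2 difference was -0.89 ± 0.081 for S100A2, -0.89 ± 0.087 for S100A4 and -0.69 ± 0.068 for S100A6 (limma adjusted p = 2.48e-12, 2.12e-11 and 2.77e-11). The calls of S100A8, S100A10 and S100A11 lay just inside the threshold (limma adjusted p = 0.0479, 0.0471 and 0.0474) and were lost under 12, 13 and 10 of 19 alternatives. Most of these left out 1 library, and the limma adjusted p was 0.168 for S100A8 and 0.16 for S100A10 without olaparib replicate 2, and 0.227 for S100A11 without olaparib replicate 3. With the replicate number as a block, 4 of 10 members were called.

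In each line the widest single S100 change was that of S100A7 in OlaR cells (log2 2.83 in SUM1315 and -5.67 in MDA-MB-468). In SUM1315, S100P under olaparib (-2.26) changed more than any OlaR member but S100A7. Several OlaR changes differed in direction between the lines. OlaR cells were compared with parental cells under overnight olaparib, the libraries that also served the comparison with untreated cells. In MDA-MB-468 all 10 members were called, 5 higher and 5 lower, where 51.5% of genes were called. S100A7 had 709, 699 and 565 adjusted reads in olaparib-treated parental cells against 17.5, 12.3 and 7.68 in OlaR cells, or 6 to 15 reads per library. It was 50.8-fold lower (log2 -5.67 ± 0.16, limma adjusted p = 5.54e-34). S100A8 went from 315, 372 and 264 to 36.9, 35.6 and 32.9 and was 8.72-fold lower (log2 -3.12 ± 0.15, limma adjusted p = 7.37e-24). S100A9 went from 1073, 1212 and 964 to 229, 222 and 289.7 and was 4.39-fold lower (log2 -2.13 ± 0.098, limma adjusted p = 1e-24). In each of these genes all 9 OlaR libraries, with or without CDDP, lay below all 18 parental libraries. The 8 myeloid markers summed to 36.7 to 53.4 in the olaparib-treated parental libraries and 10.8 to 36.9 in the OlaR libraries, with MPO and FCGR3B at 0 in every MDA-MB-468 library, CSF3R at 5.67 to 34.0 and CD14 at up to 86.6, and their part in the falls of S100A8 and S100A9 was not tested. S100A14 fell by a smaller amount, from 3937, 3742 and 3972 to 2989.9, 3188 and 3098 (log2 -0.33 ± 0.049). The call of S100A11 (log2 -0.17 ± 0.074, limma adjusted p = 0.0432) was lost in 10 of 13 alternatives. Among these were leaving out olaparib replicate 1 or 2 or OlaR replicate 1 or 3 (limma adjusted p = 0.0881 to 0.321) and the replicate number as a block (limma adjusted p = 0.0506).

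In the same OlaR MDA-MB-468 libraries S100A2, S100P and S100A4 were higher. S100A2 went from 3112, 3427 and 3062 adjusted reads to 10381, 10139 and 10130.5, 3.2-fold higher (log2 1.68 ± 0.057, limma adjusted p = 2.85e-30). S100P went from 420.0, 445 and 380.2 to 861, 969 and 964, 2.24-fold higher (log2 1.16 ± 0.075, limma adjusted p = 8.23e-19). S100A4 went from 1019.7, 1101 and 1165 to 1973, 2065 and 1885, 1.8-fold higher (log2 0.85 ± 0.062). S100A10 and S100A6 rose by 0.36 and 0.18 on the log2 scale. The OlaR libraries were the shallower ones, as given above, and the part of depth in these differences was not tested.

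In SUM1315, OlaR cells differed from olaparib-treated parental cells in 5 of 9 members, 3 higher and 2 lower, where 47.2% of genes were called. With only the groups compared, 8 of 9 were called, so members that did not pass the test here were not shown to be unchanged. S100A7 rose from 38.6, 22.7 and 24.0 adjusted reads to 233, 181 and 197 (7.12-fold, log2 2.83 ± 0.37, limma adjusted p = 1.22e-07). S100A2 rose from 10577, 10253 and 8449 to 17381, 16722 and 16988 (1.75-fold, log2 0.81 ± 0.092). S100A4 fell from 831, 916 and 769 to 255, 249 and 261, 3.27-fold lower (log2 -1.71 ± 0.10, limma adjusted p = 5.64e-15). S100A10 fell from 1800.1, 2029 and 2108 to 1295, 1195 and 1101 (log2 -0.72 ± 0.086), which lay above the 646, 689 and 587 of untreated cells, a difference that was not tested. S100A8 (7639, 7502 and 8359) and S100A9 (12335, 11654 and 13764) did not pass the test (log2 -0.20, 95% confidence interval -0.43 to 0.02, and -0.23, -0.48 to 0.01). The myeloid marker sum was 25.6 to 39.3 in these OlaR libraries, and its part was not tested. S100P rose from 13.1, 22.8 and 3.0 to 35.1, 29.9 and 29.2 (log2 1.55 ± 0.47), but without olaparib replicate 3 the value was 0.82 (limma adjusted p = 0.13). Its OlaR libraries lay below the untreated parental ones (46.6 to 55.8), a difference that was not tested.

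The OlaR change differed between the lines for 7 of the 9 members that passed the filter in both, where 41.7% of genes did. The log2 difference (SUM1315 minus MDA-MB-468) was 8.50 ± 0.42 for S100A7, 2.92 ± 0.19 for S100A8 and 1.90 ± 0.17 for S100A9. It was -2.56 ± 0.11 for S100A4, -1.08 ± 0.10 for S100A10, -0.87 ± 0.11 for S100A2 and -0.39 ± 0.12 for S100A6. S100P did not pass the test (0.39, 95% confidence interval -0.62 to 1.40), nor did S100A11. S100A14 passed the filter only through MDA-MB-468, so it was not counted here. S100A2 rose in OlaR cells of both lines, by 1.68 in MDA-MB-468 and 0.81 in SUM1315 on the log2 scale.

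**Figure D4:**
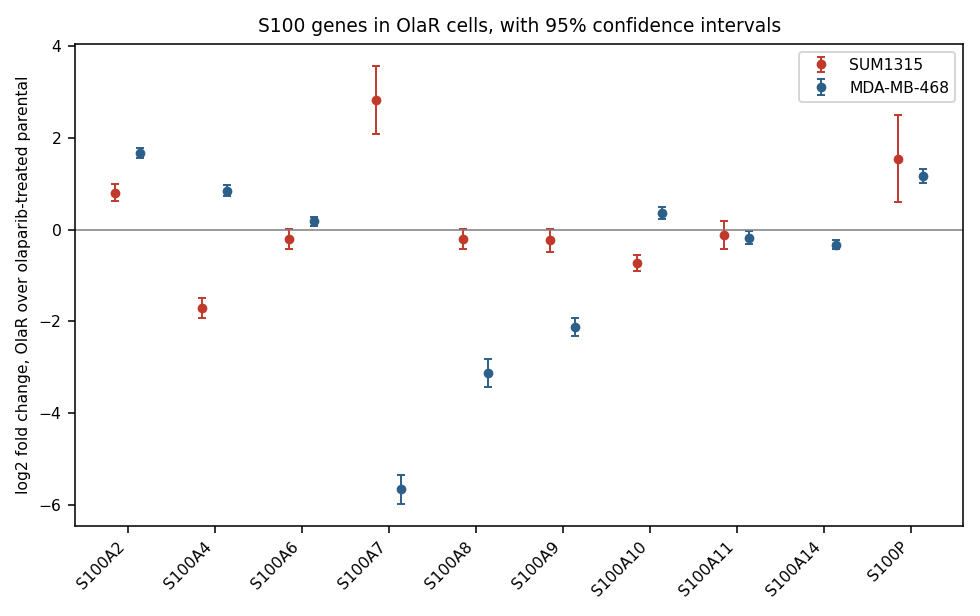
log2 fold change of OlaR cells over olaparib-treated parental cells for each S100 gene in SUM1315 (red) and MDA-MB-468 (blue), with 95% confidence intervals from the limma fit of each line; S100A14 was not tested in SUM1315. S100A7 lies at 2.83 in SUM1315 and -5.67 in MDA-MB-468, and S100A4 at -1.71 and 0.85.

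CDDP at the higher dose lowered S100 genes in OlaR cells of both lines and raised none of the members. In OlaR SUM1315, 4 of 9 members were called, all lower, where 16.7% of genes were called and 9.61% were called lower. S100A9 fell from 12335, 11654 and 13764 adjusted reads to 4709, 5830.0 and 6036 (2.29-fold, log2 -1.19 ± 0.12, limma adjusted p = 1.15e-08). S100A8 fell from 7639, 7502 and 8359 to 5417, 5109 and 5155 and S100A2 from 17381, 16722 and 16988 to 10378, 11549.5 and 10963 (log2 -0.58 ± 0.11 and -0.64 ± 0.092). S100A10 changed by -0.31 ± 0.086, a call that was lost without OlaR replicate 1 (limma adjusted p = 0.0803). At 2 µM CDDP, which entered no test, S100A9 had 10162, 7938 and 11353 and S100A8 had 6074, 6579 and 6429.8, values between those at 0 and at 4 µM. No member showed a CDDP change that differed between OlaR and olaparib-treated parental SUM1315 by limma, where 6.4% of genes did. At an unadjusted p under 0.05, 2 of 9 passed (S100A9 and S100A10). DESeq2 on the recovered reads called 1 member and edgeR 0. S100A9 had a log2 difference of -0.53 (95% confidence interval -0.88 to -0.18, limma adjusted p = 0.0555).

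In OlaR MDA-MB-468, 4 of 10 members were called, all lower, where 18.7% of genes were called and 11.2% were called lower. S100A2 fell from 10381, 10139 and 10130.5 to 8448, 8203 and 7914 (log2 -0.32 ± 0.057, limma adjusted p = 2.89e-05). Of these 4 members, only S100A2 kept its call in all 13 alternatives. S100A9 fell from 229, 222 and 289.7 to 187, 178 and 188. Its call was lost without OlaR replicate 3 (limma adjusted p = 0.0505) and by DESeq2 (adjusted p = 0.0557). The call of S100A7 (17.5, 12.3 and 7.68 against 7.59, 6.28 and 7.69) rested on 3 to 15 reads per library and its groups overlapped. It was lost without OlaR replicate 1 (limma adjusted p = 0.0736) and was not made on the recovered reads by edgeR (adjusted p = 0.242) or DESeq2 (adjusted p = 0.261). The call of S100A10 (log2 -0.18 ± 0.064) was lost in 7 of 13 alternatives. Among these were leaving out OlaR replicate 2 or 3 or the shallowest library, CDDP replicate 3 (limma adjusted p = 0.0691, 0.188 and 0.208). It was also not made on the recovered reads by edgeR (adjusted p = 0.0579) or DESeq2 (adjusted p = 0.0635). The CDDP change differed between OlaR and olaparib-treated parental MDA-MB-468 for 2 of 10 members, where 15% of genes did. These were S100A6 (0.32 ± 0.068, limma adjusted p = 0.000691), which fell in parental cells and did not pass the test in OlaR cells, and S100A10 (-0.30 ± 0.09, limma adjusted p = 0.0167). The call of S100A10 was lost without replicate 3 of any of the 4 groups (limma adjusted p = 0.063 to 0.0823).

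The 10 members together took 0.414% to 0.596% of reads in the conditions of MDA-MB-468 and 0.614% to 1.18% in those of SUM1315, as means of 3 libraries. In MDA-MB-468 the share was highest in OlaR cells without CDDP, and in SUM1315 it was highest after olaparib alone and lowest with 4 µM CDDP alone. Across the 9 condition means, S100A8 and S100A9 had a Pearson r of 0.836 in SUM1315 and 0.988 in MDA-MB-468. S100A7 had an r of 0.994 with S100A9 and 0.988 with S100A8 in MDA-MB-468. S100A4 and S100A7 had an r of -0.946 in SUM1315, and S100A2 and S100A7 an r of -0.957 in MDA-MB-468. The points of each r share a table and the split of parental from OlaR cells, and these pairs were picked from all pairs of members.

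Of 12 other genes with an S100 symbol looked for, 5 passed the filter in each line. S100PBP was among the 12 and among these 5 in both lines, though it is not a family member. S100A13 and S100A16, neighbours of S100A14, averaged 861 and 1593 adjusted reads in untreated SUM1315, where S100A14 was near 0. In MDA-MB-468 S100A16 rose under olaparib, under each CDDP dose and in OlaR cells, by 0.30, 0.24, 0.23 and 0.42 on the log2 scale, and S100A13 rose in the same 4 comparisons by 0.40, 0.51, 0.47 and 0.21. In SUM1315, S100A3 averaged 35.9 adjusted reads in untreated cells, 65.4 after olaparib and 19.6 in OlaR cells. It rose with olaparib by 0.87 ± 0.29 (limma adjusted p = 0.0171) and changed in OlaR cells by -1.72 ± 0.29 (limma adjusted p = 8.55e-06), the same directions as its neighbour S100A4. S100A7A, the near copy of S100A7, averaged 9.85 adjusted reads in olaparib-treated parental MDA-MB-468 and had no read in any OlaR library of that line. It passed the filter only through parental libraries, so no test is given. S100PBP, whose product binds S100P, changed in OlaR SUM1315 by -0.47 ± 0.17 on the log2 scale. S100A12, the third calgranulin, averaged at most 13.7 adjusted reads in any SUM1315 condition. S100A1, S100A5, S100G and S100Z averaged at most 3.83 in any condition, and S100B and S100A7L2 had no read.

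Of 18 listed partners and receptors of S100 proteins, 18 were tested in SUM1315 and 15 in MDA-MB-468. Olaparib raised 11 and lowered 1 in SUM1315, with a median log2 change of 0.42 over the list beside -0.0026 over all genes, of which 36% were called and 18.9% called higher. In MDA-MB-468 it raised 4 and lowered none (median 0.12, beside 0.0115 over all genes, of which 21.5% were called). At the higher CDDP dose alone, 11 were higher and 3 lower in SUM1315, and 2 were higher and 1 lower in MDA-MB-468, where 43.9% and 25.1% of all genes were called. OlaR cells had 8 higher and 4 lower in SUM1315 and 8 higher and 3 lower in MDA-MB-468, where 47.2% and 51.5% of all genes were called. ANXA2, the partner of S100A10, rose with olaparib in SUM1315 from 3893 to 5990.5 adjusted reads on average (log2 0.62 ± 0.092) and in MDA-MB-468 from 1551 to 1795 (0.21 ± 0.066), and was higher again in OlaR MDA-MB-468 at 3007 (0.74 ± 0.066). ANXA1, a target of S100A11, rose in OlaR cells of both lines, from 546 to 1069 in SUM1315 and from 74.2 to 313 in MDA-MB-468 (log2 0.97 ± 0.14 and 2.14 ± 0.17). MYH9, the myosin heavy chain that S100A4 binds, was lower in SUM1315 under olaparib (-0.53 ± 0.075) and 4 µM CDDP (-0.86 ± 0.075) and higher in OlaR SUM1315 (0.91 ± 0.075). CACYBP, the calcyclin binding protein to which S100A6 binds, rose in SUM1315 from 314 to 498 with olaparib and to 779 with 4 µM CDDP. AHNAK, a scaffold that the S100A10 and ANXA2 complex binds, was higher in OlaR SUM1315 (0.36 ± 0.091) and lower in OlaR MDA-MB-468 (-0.28 ± 0.066). SUGT1, which S100A6 also binds, rose with olaparib in MDA-MB-468 (0.40 ± 0.073).

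Genes of the cornified envelope, which share the chromosomal neighbourhood, were mostly below the filter. Of 31 looked for, 3 were tested in each line. In SUM1315 these were DSC2, LCE2A and CDSN. DSC2 and LCE2A had no read in the olaparib-treated parental libraries and averaged 15.8 and 19.0 adjusted reads in OlaR SUM1315, and since only OlaR libraries took them past the filter, their levels are given with no test. CDSN averaged 3.14 and 13.1. In OlaR MDA-MB-468, TGM1, the transglutaminase that crosslinks the envelope, fell from 96.3 to 10.9 (log2 -3.08 ± 0.25), and TCHH and DSC2 rose (1.11 ± 0.24 and 0.33 ± 0.085).

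Of 21 genes of epithelial innate defence, 13 were tested in SUM1315 and 9 in MDA-MB-468. OlaR cells had 7 higher and 3 lower in SUM1315 and 5 higher and 3 lower in MDA-MB-468, beside the same 47.2% and 51.5% of all genes called. LCN2, an iron-trapping protein that is often found with calprotectin, rose in OlaR SUM1315 from 52.0 to 622 adjusted reads on average (log2 3.57 ± 0.18) and under 4 µM CDDP from 46.9 to 185 (1.99 ± 0.18), where S100A8 and S100A9 fell. The acute-phase gene SAA1 rose in OlaR SUM1315 from 1748 to 4486, and SAA2 from 849.8 to 1896. ELF3, an epithelial transcription factor, rose in OlaR cells of both lines (0.90 ± 0.17 in SUM1315 and 0.82 ± 0.057 in MDA-MB-468). PI3 (elafin) was lower in MDA-MB-468 under olaparib, under both CDDP doses and in OlaR cells (-0.89, -0.97, -0.95 and -1.17 on the log2 scale). MUC1 was lower in OlaR MDA-MB-468 (-1.22 ± 0.091). SLPI, another protease inhibitor, was higher in OlaR MDA-MB-468 (0.69 ± 0.064) and lower in OlaR SUM1315 (-1.58 ± 0.10).

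Genes most like the widest-ranging members of each line were sought by Pearson r over the 9 condition means, among genes past the filter with a range of at least 1 on the log2 scale and without S100 genes. In MDA-MB-468 they were LRG1, SMARCA1 and SPDEF for S100A7 (r of 0.998, 0.997 and 0.997 among 5125 genes) and PC, PRRG1 and ABI1 for S100A9. SPDEF averaged 209.9 adjusted reads in olaparib-treated parental cells and 17.7 in OlaR cells. In SUM1315 they were EGFL7, WNT7B and ACTBL2 for S100A7 (r of 0.987, 0.985 and 0.985 among 7441 genes) and ITPRIP, UBA6-AS1 and ZNF81 for S100P (0.915, 0.914 and 0.911). These are descriptions over 9 means that share the parental to OlaR split, chosen as the highest among all candidates.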

How the data were processed

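RNA from 54 libraries of SUM1315 and MDA-MB-468 cells was sequenced from transcript 3′ ends. Per the labels and the study's methods, the authors used CASAVA 1.8.2, FastQC, STAR, HTSeq and edgeR with the hg38 genome. The deposited values are a signal: read counts that the authors adjusted by quantiles in edgeR to a common library size. The authors' tables of their own fold changes, p-values and FDR were not used. Because the adjusted values are not whole, the test planned for such values was used. Reversing the adjustment returned whole reads (100% of 1483380 values were given back within 1e-6, with a common dispersion of 0.01039) and served the count tests among the alternatives.

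Genes that reached 10 adjusted reads in 3 or more libraries were tested with limma 3.58.1 (R 4.3.3, intensity trend) on log2(value + 1), with all 27 libraries of a line or all 54 libraries between lines. Fold changes are on that scale, which understates changes of low genes. p-values were adjusted by Benjamini-Hochberg over all genes tested and called at 0.05, two-sided. Comparisons within a line share control libraries. Alternatives were a pseudocount of 5, no filter, upper quartile scaling, a replicate block, only the groups compared, a fold limit of 2, edgeR 4.0.16, DESeq2 1.42.0 and leaving out each library. Replicate numbers did not pair the libraries. The fit was tested on simulated data. The members, lists and comparisons were chosen with earlier results of these data known. By the naming rule, each list gave up to 4 genes per line, those called in the most comparisons, and each of the 3 widest-ranging members its 3 most alike genes, of which some are not reported here. Promoters and stretches came from RefSeq and GENCODE.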

Additional observations from a re-analysis of the deposited data

Results flagged for a closer look

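Each result here is a difference between 2 changes that passed its own test (limma, adjusted p at or under 0.05). Values are log2 differences.

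The olaparib change with 4 µM CDDP minus that without it, in parental SUM1315, was -0.55 for S100A2 (adjusted p = 0.00248), -0.60 for S100A4 (0.00342), 0.78 for S100A9 (0.00104) and -1.49 for S100A10 (1.36e-10). With 2.5 µM CDDP in parental MDA-MB-468 it was -0.89 for S100A2 (adjusted p = 2.48e-12), -0.89 for S100A4 (2.12e-11), -0.69 for S100A6 (2.77e-11), -0.58 for S100A8 (0.0479), -0.24 for S100A10 (0.0471) and 0.28 for S100A11 (0.0474). The last 3 are near the threshold.

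The CDDP change in OlaR minus that in olaparib-treated parental MDA-MB-468 was 0.32 for S100A6 (adjusted p = 0.000691) and -0.30 for S100A10 (0.0167).

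The olaparib change in SUM1315 minus that in MDA-MB-468 was 0.45 for S100A6 (adjusted p = 0.00401), 1.28 for S100A8 (1.21e-06), 0.65 for S100A9 (0.005), 1.04 for S100A10 (2.53e-10), 0.56 for S100A11 (0.0307), -1.44 for S100A14 (0.00115) and -1.84 for S100P (0.00606). S100A14 had 0 to 5 reads per library in SUM1315 and passed the filter only through MDA-MB-468, so its call is no evidence of a difference. Its value was -0.52 with a pseudocount of 5, -2.68 by edgeR and -3.01 by DESeq2, where the call was lost (adjusted p = 0.0736). The value of S100P without olaparib replicate 3 of SUM1315 was -1.11 (adjusted p = 0.0604).

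The OlaR change in SUM1315 minus that in MDA-MB-468 was -0.87 for S100A2 (adjusted p = 7.26e-09), -2.56 for S100A4 (6.08e-23), -0.39 for S100A6 (0.00607), 8.50 for S100A7 (3.39e-21), 2.92 for S100A8 (2.36e-17), 1.90 for S100A9 (1.61e-12) and -1.08 for S100A10 (8.04e-12). Olaparib doses differed between the lines, so line and dose cannot be told apart in either set.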

How the results depend on the processing

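Of 112 called member changes, 1612 alternative values were computed. Direction was kept in all of them, and the call was lost in 102. The tally includes the calls of S100A14 between lines, in untreated cells and in the olaparib change. That gene passed the filter there only through MDA-MB-468, so these calls were left out of the counts in the Results. Among the moves in the counts of called members were the following. Their cause was not tested except for the fold limit, which by construction removes smaller changes. With a fold limit of 2, the SUM1315 counts were 4 for olaparib, 1 for 2 µM CDDP, 0 for CDDP added to olaparib, 3 for OlaR, 1 for CDDP in OlaR cells and 1 for the olaparib change with and without CDDP. Under the same limit MDA-MB-468 had 5 for OlaR and 0 for olaparib, each CDDP dose and both combination comparisons. It also had 0 for CDDP in OlaR cells and both differences of changes. Between lines, 4 members passed this limit in the olaparib change. S100A14 was among these 4, and its call is no evidence of a difference. With only the groups compared, the counts were 8 for OlaR SUM1315, 1 for the CDDP difference between OlaR and parental SUM1315 and 3 for the olaparib change between lines. In that setting S100A7, S100A9 and S100A11 also lost their calls for olaparib in SUM1315. That CDDP difference in SUM1315 also called 1 member with upper quartile scaling and 1 with DESeq2. For CDDP in OlaR MDA-MB-468, edgeR called 2 and DESeq2 1. In MDA-MB-468 they also called 6 and 5 for olaparib, 6 and 5 for 1 µM CDDP and 7 and 7 for 2.5 µM CDDP. For the combination they called 6 and 6 against olaparib and 8 and 8 against CDDP. OlaR cells gave 9 and 9, the CDDP difference 3 and 3 and the olaparib difference 7 and 7. In SUM1315 they called 5 and 6 for the combination against CDDP and 5 and 5 for CDDP in OlaR cells. The olaparib change between lines gave 8 (S100A14 among them) and 7. Without the filter, MDA-MB-468 had 1 member for the CDDP difference and 3 for the olaparib difference.

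Leaving out 1 library gave 3 to 6 members for CDDP added to olaparib in SUM1315 (3 without replicate 2 of either group) and 0 to 1 for the CDDP difference in SUM1315 (1 without OlaR with 4 µM CDDP replicate 3). In MDA-MB-468 it gave 1 to 3 for the CDDP difference (1 without OlaR with 2.5 µM CDDP replicate 3, the shallowest library) and 3 to 5 for the olaparib difference (3 without untreated replicate 1, CDDP replicate 1 or 2, or combination replicate 2).

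The replicate numbers did not pair the libraries: same-numbered libraries had correlations of deviations from -0.098 to 0.163 in SUM1315 and -0.047 to 0.043 in MDA-MB-468. With the replicate block, 9 in place of 10 members were called in OlaR MDA-MB-468 and 4 in place of 6 for the olaparib difference there, and the other 19 counts were as given. At 6 to 15 reads per library, S100A7 in OlaR MDA-MB-468 is limited by counting error.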
